A study of Mus musculus with 6 samples.

Results

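The genes described here were 8 Toll-like receptors (*Tlr1*, *Tlr2*, *Tlr3*, *Tlr4*, *Tlr6*, *Tlr7*, *Tlr8* and *Tlr13*), the lipopolysaccharide co-receptor *Cd14* and the adaptor *Myd88*. They were chosen by name, and all 10 were found among the 18089 genes of the deposited table and passed edgeR's filter on low counts. Most of them were more abundant in ischemic muscle of *Gpr174-/Y* mice than of WT mice, with *Tlr13*, *Tlr8* and *Cd14* showing the largest differences and *Tlr3* showing none that could be detected.

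Toll-like receptors recognise molecules of microbes and, in injured tissue, molecules released by dying cells or broken from the extracellular matrix. TLR1, TLR2, TLR4 and TLR6 act at the cell surface, where TLR2 pairs with TLR1 or TLR6 to bind lipopeptides and TLR4 binds lipopolysaccharide handed over by CD14. TLR3, TLR7, TLR8 and TLR13 act in endosomes. TLR3 binds double-stranded RNA, TLR7 and human TLR8 bind single-stranded RNA or its breakdown products, and TLR13 binds bacterial ribosomal RNA. All of them except TLR3 use the adaptor MyD88, which leads to NF-kB activation and cytokine transcription. Macrophages, which enter damaged muscle, are among the cells known to express many of these receptors.

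Total RNA was sequenced from gastrocnemius muscle of 3 WT and 3 *Gpr174-/Y* mice 7 days after hindlimb ischemia (HLI), which was produced by ligating the femoral artery and removing the segment between the ligatures. All mice were C57BL/6 males aged 8 to 10 weeks, and both groups had ischemia. The *Gpr174-/Y* mice, labelled GPR174-KO, lacked the X-linked lysophosphatidylserine receptor gene *Gpr174* in the whole animal, so that a difference in muscle cannot be assigned to a cell type. No uninjured muscle was analysed here.

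The WT libraries held 18417111 to 18695034 estimated counts and the *Gpr174-/Y* libraries 19173066 to 19394504. For the deleted gene, *Gpr174*, 8, 2 and 5 counts were found in the WT libraries and 1, 0 and 0 in the *Gpr174-/Y* libraries, close to the 3 counts taken as the limit of detection (0.155 to 0.163 CPM, where CPM is a library's count scaled to a common total, and counting error alone is covered). The muscle label was borne out by 10 mature fibre markers such as *Acta1* and *Ckm*, whose summed level was 111000 to 154000 CPM in WT and 48300 to 54800 CPM in *Gpr174-/Y* muscle. The WT libraries were spread widely. For all 10 receptor and adaptor genes WT replicate 1 was lowest, replicate 2 was in the middle and replicate 3 was highest, and among 3859 genes with a mean of at least 50 CPM WT replicate 2 lay between the other replicates for 85.9%. In the *Gpr174-/Y* group replicate 2 was in the middle for 8 of the 10 genes, with replicate 3 again highest for 8, and in the middle for 76.6% of the 3859 genes. The sources used here give no batch, and what ordered the libraries was not tested.

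CPM below are TMM-scaled. Differences between genotypes come from edgeR's quasi-likelihood test, with p adjusted by the Benjamini-Hochberg method over 14395 genes. At an adjusted p under 0.05, 7 of the 10 genes rose in *Gpr174-/Y* muscle (*Tlr1*, *Tlr2*, *Tlr4*, *Tlr8*, *Tlr13*, *Cd14* and *Myd88*), none fell, and *Tlr3*, *Tlr6* and *Tlr7* did not pass. Of all genes tested 27.0% rose and 27.6% fell at this threshold. Total counts called 9 of the 10 genes higher, all but *Tlr3*, beside 7303 of all genes, and each fit on FPKM called the same 9. With TMM the median log2 fold change of the 10 genes was 0.48, against 0 over all genes tested. Only *Tlr13* also passed a log2 fold change of 1, as did 3.45% of all genes in this direction. With total counts 4 of the 10 genes did so, and 3 or 4 with FPKM, which shares that scaling. Total counts also moved the median log2 fold change of all genes by 0.27 and called 7303 genes higher, against 3891 with TMM. The share of all genes past both thresholds was not counted with total counts or FPKM. For 8 of the 10 genes every *Gpr174-/Y* library lay above every WT library, which was the case for 33.1% of all genes. With 3 libraries against 3, the 2-sided exact permutation test of each of these 8 genes gave p = 0.1, the smallest p this design allows. Leaving out WT replicate 2 reduced the 7 genes to 2 (*Tlr8* and *Tlr13*), leaving out *Gpr174-/Y* replicate 2 or 3 reduced them to 4 or 3, and comparing replicates 1 and 3 of each group alone left 0, where no gene of the whole table passed (5026 had an unadjusted p under 0.05, with 3 of the 10 genes among them).

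**Figure D1:**
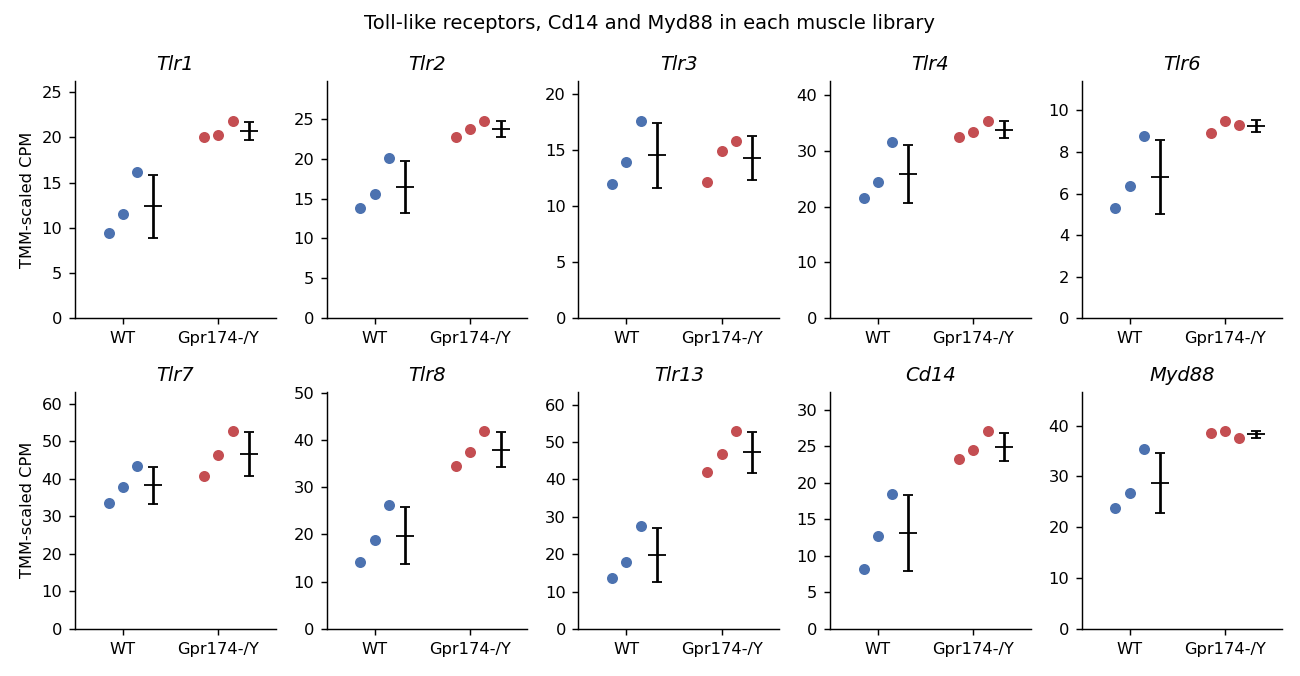
Each panel plots the TMM-scaled CPM of 1 gene on an axis that starts at 0, with points for replicates 1, 2 and 3 of each group from left to right and a bar for the mean and SD (n = 3). In every panel WT replicate 3 is the highest WT point, the groups overlap for *Tlr3* and *Tlr7*, and the gap is widest for *Tlr13*, with 27.7 CPM in the highest WT library and 41.9 CPM in the lowest *Gpr174-/Y* library.

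The sequence before the start site is shown for *Tlr13* and *Tlr8*, which had the largest log2 fold changes of the 10 genes, and for *Myd88*, the adaptor that the other receptors here share apart from TLR3. Each run holds the 250 bases before the start site, 5′ to 3′ on the gene's strand, from RefSeq (build GRCm38.p6), and lies at chrX:106143025-106143274 on the plus strand for *Tlr13*, chrX:167264330-167264579 on the minus strand for *Tlr8* and chr9:119340019-119340268 on the minus strand for *Myd88*. Capitals mark matches, on either strand, to GAGGAA, the core bound by the myeloid factor PU.1, or to GAAANNGAA, a form of the element bound by IRF factors. The *Tlr13* match is the PU.1 core, the *Myd88* match is the IRF form, and in *Tlr8* the PU.1 core comes first and the IRF form after it, both read from the opposite strand.
Tlr13: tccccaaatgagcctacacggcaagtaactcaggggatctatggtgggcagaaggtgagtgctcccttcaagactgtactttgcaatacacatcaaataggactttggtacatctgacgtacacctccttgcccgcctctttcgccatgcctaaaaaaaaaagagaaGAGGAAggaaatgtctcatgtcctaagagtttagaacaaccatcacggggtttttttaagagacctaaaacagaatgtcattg
Tlr8: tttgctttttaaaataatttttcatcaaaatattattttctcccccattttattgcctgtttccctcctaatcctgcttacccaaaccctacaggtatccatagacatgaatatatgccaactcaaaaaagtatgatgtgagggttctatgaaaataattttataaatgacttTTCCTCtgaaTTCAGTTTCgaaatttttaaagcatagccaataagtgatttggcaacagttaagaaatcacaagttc
Myd88: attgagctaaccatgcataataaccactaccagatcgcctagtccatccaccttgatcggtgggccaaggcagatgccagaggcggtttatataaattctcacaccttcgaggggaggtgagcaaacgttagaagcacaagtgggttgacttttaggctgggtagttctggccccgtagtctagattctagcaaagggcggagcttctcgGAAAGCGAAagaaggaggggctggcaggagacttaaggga
The promoter table used here held no entry for *Tlr4* or *Tlr7*, and *Cd14* was left out of the count. Matches were counted for the remaining 7 of the 10 genes, with 9 start sites. Of these 9 promoters 3 held the PU.1 core, 3 the IRF form and 1 the NF-kB form GGANTTTCC, against 23.3%, 7.13% and 1.07% of 32851 promoters of the same length. A match describes the letters only, and binding was not measured here.

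*Tlr2* encodes the partner that TLR1 and TLR6 have in common. *Tlr2* (Entrez gene 24088, chromosome 3) was at 13.8, 15.5 and 20.1 CPM in WT replicates 1, 2 and 3 and at 22.7, 23.7 and 24.8 CPM in the *Gpr174-/Y* replicates. The groups did not overlap, and the *Gpr174-/Y* libraries were close together. *Tlr2* rose 1.44-fold (log2 fold change 0.52, standard error 0.13, adjusted p = 0.0148, 222 to 533 counts per library), a call that ended without WT replicate 2 or *Gpr174-/Y* replicate 3.

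*Tlr1* and *Tlr6* are neighbours on chromosome 5 and encode the receptors that pair with TLR2 for triacylated and diacylated lipopeptides. *Tlr1* (Entrez gene 21897) was at 9.40, 11.6 and 16.1 CPM in the WT replicates and at 20.02, 20.3 and 21.9 CPM in the *Gpr174-/Y* replicates. Its lowest *Gpr174-/Y* library was well clear of its highest WT library, and *Tlr1* rose with a log2 fold change of 0.74 (standard error 0.18, adjusted p = 0.0119), although not without WT replicate 2. *Tlr6* (Entrez gene 21899) was the least abundant of the 10 genes, at 5.29, 6.37 and 8.77 CPM in WT and 8.94, 9.51 and 9.30 CPM in *Gpr174-/Y* muscle. The *Tlr6* groups were separated by the narrow gap between WT replicate 3 and *Gpr174-/Y* replicate 1, and its log2 fold change of 0.44 (standard error 0.17, adjusted p = 0.068) did not pass. With total counts *Tlr6* was called higher by edgeR (log2 fold change 0.70, adjusted p = 0.0186). The 2 genes are near-identical over part of their length: 13.6% of the 50-base windows of the *Tlr1* transcripts and 12.3% of those of *Tlr6* occur unchanged in the other gene, so how their reads were divided is uncertain. No other 2 of the 10 genes shared such a window.

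*Cd14* encodes the protein that collects lipopolysaccharide from LBP and delivers it to TLR4. *Cd14* (Entrez gene 12475, chromosome 18) was at 8.21, 12.7 and 18.5 CPM in the WT replicates and at 23.3, 24.5 and 27.1 CPM in the *Gpr174-/Y* replicates. The WT replicates were far apart, yet the groups did not overlap. *Cd14* rose 1.89-fold (log2 fold change 0.92, standard error 0.25, adjusted p = 0.0191). Leaving out WT replicate 2 or *Gpr174-/Y* replicate 2 or 3 ended this call, with log2 fold changes from 0.68 to 1.26 over all libraries left out in turn.

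*Tlr4* (Entrez gene 21898, chromosome 4), the lipopolysaccharide receptor, was at 21.5, 24.3 and 31.6 CPM in the WT replicates and at 32.5, 33.4 and 35.4 CPM in the *Gpr174-/Y* replicates. WT replicate 3 came close to the lowest *Gpr174-/Y* library, without reaching it. *Tlr4* rose by a log2 fold change of 0.38 (standard error 0.13, adjusted p = 0.0467), which is just inside the threshold, and of the 6 comparisons that left out a library only the 1 without WT replicate 3 kept the call. The co-receptor thus had a larger log2 fold change than the receptor, with 95% intervals of 0.33 to 1.51 for *Cd14* and 0.06 to 0.70 for *Tlr4* that overlap, and the difference between them was not tested.

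Of the endosomal receptors, *Tlr13* (Entrez gene 279572, chromosome X) differed most. It was at 13.7, 18.0 and 27.7 CPM in the WT replicates and at 41.9, 46.9 and 52.9 CPM in the *Gpr174-/Y* replicates. Every *Gpr174-/Y* library was well above the highest WT library. *Tlr13* rose 2.38-fold (log2 fold change 1.25, standard error 0.24, 95% interval 0.69 to 1.81, adjusted p = 0.00493), and it was called in 17 of 18 alternative analyses, with log2 fold changes of 1.05 to 1.58.

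*Tlr8* (Entrez gene 170744) and *Tlr7* (Entrez gene 170743) lie beside each other on chromosome X. *Tlr8* was at 14.3, 18.8 and 26.1 CPM in the WT replicates and at 34.5, 37.3 and 41.8 CPM in the *Gpr174-/Y* replicates. The groups did not overlap, and *Tlr8* rose with a log2 fold change of 0.94 (standard error 0.20, adjusted p = 0.00794), called in 17 of 18 alternatives. *Tlr7* was at 33.5, 37.9 and 43.3 CPM in WT and at 40.9, 46.3 and 52.7 CPM in *Gpr174-/Y* muscle. WT replicate 3 was above *Gpr174-/Y* replicate 1, so the *Tlr7* groups overlapped, and the log2 fold change of 0.28 (standard error 0.12, adjusted p = 0.0875, 2-sided exact permutation p = 0.2) did not pass. Without WT replicate 3 both *Tlr7* and *Tlr6* were called higher. With total counts *Tlr7* was also called higher by edgeR (log2 fold change 0.55, adjusted p = 0.0157). The 95% intervals of *Tlr8* and *Tlr7* were 0.46 to 1.42 and -0.0059 to 0.57.

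*Tlr3* (Entrez gene 142980, chromosome 8), the receptor for double-stranded RNA, was at 12.01, 13.9 and 17.6 CPM in the WT replicates and at 12.1, 14.9 and 15.9 CPM in the *Gpr174-/Y* replicates. The *Gpr174-/Y* libraries lay inside the WT range. The log2 fold change was -0.02 (standard error 0.16, 95% interval -0.41 to 0.36, adjusted p = 0.908), its sign turned positive under total-count scaling (0.24), and no alternative called it. *Tlr3* was the only one of the 10 genes for which the alternatives disagreed in sign.

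*Myd88* (Entrez gene 17874, chromosome 9), the adaptor, was at 23.9, 26.8 and 35.3 CPM in the WT replicates and at 38.5, 38.9 and 37.5 CPM in the *Gpr174-/Y* replicates. The *Gpr174-/Y* libraries were nearly level and all above the highest WT library. *Myd88* rose 1.33-fold (log2 fold change 0.41, standard error 0.13, adjusted p = 0.0363). As for *Tlr4*, only the comparison without WT replicate 3 kept the call, of the 6 that left out a library.

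**Figure D2:**
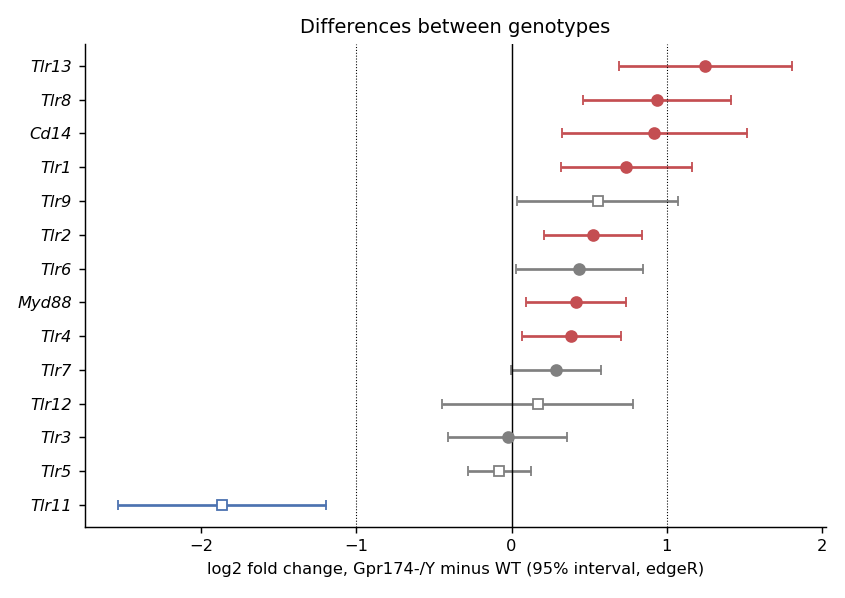
The horizontal axis is the log2 fold change, *Gpr174-/Y* minus WT, with 95% intervals from edgeR, for the 10 genes (circles) and the remaining mouse Toll-like receptors (open squares), red where the adjusted p was under 0.05 and the gene higher, blue where lower and grey where not called. *Tlr13* is at the top with 1.25, *Tlr3* is close to 0 and *Tlr11* is at -1.87. *Tlr11* had few counts and passed the filter on low counts only through the WT libraries.

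The remaining Toll-like receptors, none of the 10 genes, were *Tlr5*, *Tlr9*, *Tlr11* and *Tlr12*. *Tlr9*, the endosomal receptor for CpG DNA, was at 9.89, 12.7 and 17.9 CPM in WT and 17.4, 18.7 and 23.6 CPM in *Gpr174-/Y* muscle, and its log2 fold change of 0.56 (adjusted p = 0.0667) did not pass. *Tlr5*, the flagellin receptor, had a log2 fold change of -0.08 (adjusted p = 0.461, turning to 0.20 under total-count scaling) and *Tlr12* had 0.17 (adjusted p = 0.609). *Tlr11*, which recognises profilin, was the 1 of these 4 that fell, from 15, 20 and 24 counts in WT to 5, 6 and 9 counts in *Gpr174-/Y* muscle (log2 fold change -1.87, adjusted p = 0.0023).

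Compared per length, in TPM (estimated transcripts of a gene scaled to a common total), *Myd88* was the most abundant of the 10 genes and *Tlr6* the least abundant in WT. In WT muscle the TPM levels were 26.2 ± 6.77 for *Myd88*, 14.1 ± 6.20 for *Cd14*, 12.7 ± 2.43 for *Tlr7*, 10.1 ± 2.50 for *Tlr2* and 8.63 ± 3.55 for *Tlr13* (SD, n = 3). They were 7.67 ± 2.59 for *Tlr1*, 7.27 ± 2.73 for *Tlr8*, 5.87 ± 1.49 for *Tlr3*, 5.67 ± 1.43 for *Tlr4* and 3.72 ± 1.14 for *Tlr6*. Every neighbour in this WT order overlapped with the next in its range over libraries. Within each WT library, however, neighbours kept this order, except *Cd14* and *Tlr7* in WT replicate 1 (8.31 and 10.4 TPM). In *Gpr174-/Y* muscle the TPM levels were 45.5 ± 1.06 for *Myd88*, 34.8 ± 3.88 for *Cd14*, 26.8 ± 4.02 for *Tlr13*, 20.7 ± 3.60 for *Tlr7* and 18.9 ± 1.46 for *Tlr2*. They were 18.5 ± 2.01 for *Tlr8*, 16.7 ± 1.41 for *Tlr1*, 9.66 ± 0.756 for *Tlr4*, 7.55 ± 1.27 for *Tlr3* and 6.74 ± 0.681 for *Tlr6*. Here *Myd88* and *Cd14*, *Cd14* and *Tlr13*, *Tlr1* and *Tlr4*, and *Tlr4* and *Tlr3* were separated, and the other neighbours overlapped. Within libraries only *Tlr7* and *Tlr2* (replicate 1) and *Tlr2* and *Tlr8* (replicate 3) changed places. *Tlr13* stood in place 5 of the WT order and in place 3 of the *Gpr174-/Y* order.

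The receptors were also set beside markers of macrophages, which are known to express many of them. Of 12 macrophage and monocyte markers 10 rose, with a median log2 fold change of 0.77, and their summed level was 1470 to 2280 CPM in WT and 3430 to 3490 CPM in *Gpr174-/Y* muscle. Examples were *Itgam* (log2 fold change 1.596, adjusted p = 0.00181), *Cd68* (1.22, adjusted p = 0.00331) and *Adgre1* (0.84, adjusted p = 0.0058). *Fcgr1* (0.78, adjusted p = 0.0817) and *Ly6c2* (-0.16, adjusted p = 0.783) did not pass. In bulk muscle, more cells of a type and more RNA per cell cannot be told apart, and the part of macrophage number in the receptor differences was not tested.

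The 10 genes were also described per 1000 counts of the 12 macrophage markers. *Tlr13* had 9.29, 10.02 and 12.1 counts in the WT replicates and 12.2, 13.6 and 15.2 counts in the *Gpr174-/Y* replicates, so all *Gpr174-/Y* libraries stayed above, by 1.30 times in the mean, with almost no gap at the nearest libraries. *Tlr8* (10.5 ± 0.897 in WT and 11.0 ± 0.974 in *Gpr174-/Y*, SD, n = 3) and *Cd14* (6.91 ± 1.27 and 7.22 ± 0.499) overlapped between the groups. The other genes had fewer counts per 1000 marker counts in every *Gpr174-/Y* library than in any WT library. This ratio falls for any gene that rose less than the summed markers. The ratio of the means was 0.525 for *Tlr3*, 0.644 for *Tlr7*, 0.698 for *Tlr4*, 0.713 for *Myd88*, 0.732 for *Tlr6*, 0.768 for *Tlr2* and 0.905 for *Tlr1*. For each gene the order of the groups was the same without *Lyz2*, which made up 40.5% to 47.3% of the marker counts. Each separated gene reached p = 0.1 in the 2-sided exact permutation test, the smallest possible here. The summed marker counts themselves rose, from 23691 to 40592 in the WT libraries to 71781 to 74981 in the *Gpr174-/Y* libraries. A gene without a detected difference of its own, such as *Tlr3*, is therefore lower in this ratio. The share of all genes that such a ratio separates was not counted.

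**Figure D3:**
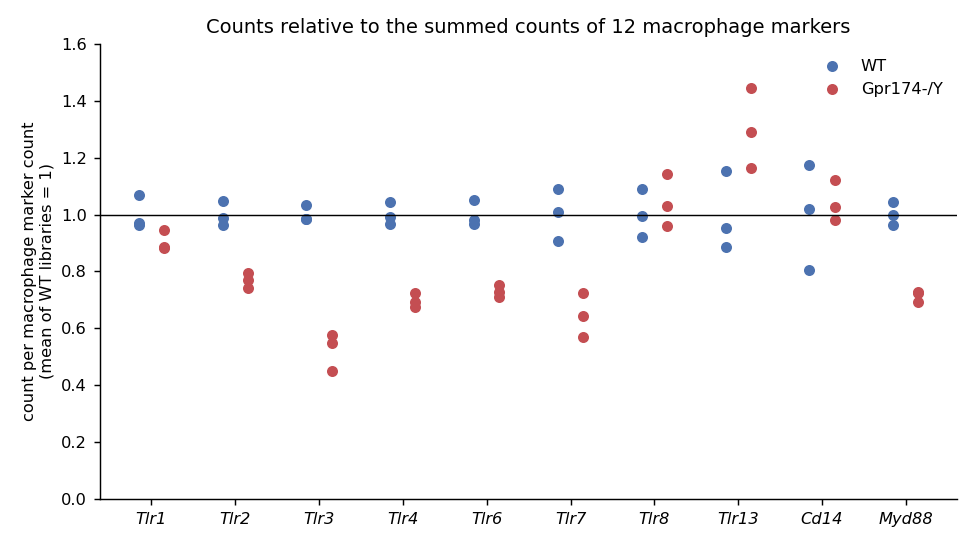
The vertical axis, which starts at 0, is each gene's count divided by the summed count of 12 macrophage markers in the same library, relative to the mean of the WT libraries, and each point is 1 library. *Tlr13* is the 1 gene with all *Gpr174-/Y* points above the WT points, *Tlr8* and *Cd14* are mixed, and *Tlr3* lies lowest with a mean ratio of 0.525. The marker sum itself was higher in every *Gpr174-/Y* library, and the share of all genes that such a ratio separates was not counted.

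Of 8 neutrophil markers 2 rose, 1 fell (0 under total-count scaling) and 5 were too low to test, among them *Ly6g* at 0 counts in every library except 1 count in *Gpr174-/Y* replicate 3 and *Ngp* likewise, and the summed level was 21.3 to 28.9 CPM in WT and 32.8 to 36.0 CPM in *Gpr174-/Y* muscle. Of 7 dendritic cell markers 1 rose and 4 fell, or 1 and 1 under total-count scaling (98.6 to 184 and 144 to 163 CPM in sum). None of the 2 B cell and 5 T cell markers that were tested, of 4 and 6 listed, was called with TMM, while 1 and 2 were called higher with total counts, with sums of 1.91 to 2.68 and 2.56 to 3.25 CPM for B cells and 13.1 to 23.6 and 23.0 to 24.7 CPM for T cells. Endothelial markers fell in 6 of 6 cases (813 to 983 and 503 to 570 CPM) and fibre markers in 10 of 10. Of 4 fibroblast markers 2 rose and 1 fell, or 3 and 0 under total-count scaling (10900 to 15900 and 20000 to 23000 CPM). The fibroblast sum was mostly *Col1a1* and *Col3a1*, while *Pdgfra* had a log2 fold change of -0.21 and *Dpt* of 0.02. Likewise *Csf3r*, *Bst2* and *Cd4* made up most of the neutrophil, dendritic cell and T cell sums. The part of these cells in the receptor differences was not tested.

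Of 96 other genes listed for the Toll-like receptor pathway 89 were tested, of which 38 rose, 13 fell and 38 did not pass. Their median log2 fold change was 0.28. Over all genes tested the shares were 27.0% higher and 27.6% lower, beside which the counts of single lists and cell markers are to be read. Under total-count scaling 61 pathway genes rose and 6 fell, so the count that fell depends on the scaling. That scaling moved the median of all genes by 0.27, and of all 14395 genes 7303 rose and 2010 fell. Leaving out a library in turn gave 34 to 61 calls in all, and replicates 1 and 3 of each group alone gave 0 (29 with an unadjusted p under 0.05 by edgeR).

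Genes that fold or carry the receptors (*Hsp90b1*, *Cnpy3*, *Unc93b1* and *Lrrc59*) all rose, while the other genes of their list moved in both directions. Of 9 co-receptors, chaperones and trafficking proteins 5 rose and 2 fell (*Lbp* and *Cd36*), with a median of 0.47. Under total-count scaling 7 rose and 1 fell, and *Cd36* was not called. *Cnpy3*, *Unc93b1* and *Cd36* are named after their values were seen. *Cd180*, a TLR relative on B cells and macrophages, was at 11.3, 15.2 and 24.1 CPM in WT and 34.2, 35.5 and 35.4 CPM in *Gpr174-/Y* muscle, without overlap (log2 fold change 1.05, adjusted p = 0.00988). *Hsp90b1*, the endoplasmic reticulum chaperone of most TLRs, rose with a log2 fold change of 0.64 (adjusted p = 0.00126) and *Lrrc59*, which helps move endosomal TLRs, with 0.71 (adjusted p = 0.00368). *Lbp*, which hands lipopolysaccharide to CD14, went the other way from *Cd14*, from 36.1, 39.6 and 45.5 CPM in WT to 25.95, 26.3 and 26.2 CPM in *Gpr174-/Y* muscle (log2 fold change -0.63, adjusted p = 0.00185, and -0.36 under total-count scaling, still called lower).

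Endolysosomal enzymes, some of which cut the endosomal receptors into their active form or process their nucleic acid ligands, rose in 8 of 10 cases with a median of 0.76, and none fell. The cysteine proteases led, with *Ctss* at 1.01 (adjusted p = 0.0161), *Ctsb* at 0.90 (adjusted p = 0.00198), *Lgmn* at 0.88 (adjusted p = 0.00459) and *Ctsl* at 0.83 (adjusted p = 0.00184) on the log2 scale. These proteases are also abundant in macrophages in general.

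Of the other 5 TIR adaptors 1 rose and 1 fell, whereas under total-count scaling 4 rose and 0 fell. *Ticam2*, also called TRAM, which links TLR4 to TRIF, was at 4.48, 4.40 and 4.55 CPM in WT and 7.502, 8.76 and 8.09 CPM in *Gpr174-/Y* muscle. Its WT libraries were level, unlike those of *Myd88*, and it rose with a log2 fold change of 0.86 (adjusted p = 0.00107). *Tirap*, which bridges TLR2 and TLR4 to MyD88, fell from 28.1, 25.0 and 21.1 CPM to 19.6, 19.5 and 20.9 CPM (log2 fold change -0.30, adjusted p = 0.0456, and -0.02 and not called under total-count scaling). *Ticam1* (-0.01, adjusted p = 0.941, and 0.26 and called higher under total-count scaling), *Sarm1* (0.40, adjusted p = 0.22) and *Pik3ap1* (0.76, adjusted p = 0.0683) did not pass, and the latter 2 were also called higher under total-count scaling (adjusted p = 0.0485 and 0.0313).

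Of 16 kinases and ubiquitin ligases below the adaptors 3 rose, 3 fell and 10 did not pass, with a median of -0.01, whereas under total-count scaling 10 rose and 0 fell, with a change of sign for 8. *Ripk1* (0.44, adjusted p = 0.00586), *Irak4* (0.38, adjusted p = 0.00596) and *Ikbke* (0.37, adjusted p = 0.0433) rose on the log2 scale. *Map3k7*, the kinase TAK1, fell by 0.35 (adjusted p = 0.00377), and none of the 3 genes that fell was called under total-count scaling. Of 9 NF-kB and IRF transcription factors 6 rose and none fell, among them *Irf5* (0.57, adjusted p = 0.0418), *Irf8* (0.54, adjusted p = 0.0137), *Rel* (0.46, adjusted p = 0.00798) and *Rela* (0.30, adjusted p = 0.00675).

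Inhibitors of the pathway were divided, with 6 of 15 higher and 3 lower, or 10 and 2 under total-count scaling. *Tnip3*, an inhibitor of NF-kB activation, rose by a log2 fold change of 1.55 (adjusted p = 0.008) from a mean of 0.593 CPM, and *Nfkbie*, an inhibitor of NF-kB that is itself induced by it, rose by 0.96 (adjusted p = 0.00175). *Sigirr*, an inhibitory member of the IL-1 receptor family, was at 5.48, 5.65 and 5.34 CPM in WT and 2.92, 2.68 and 2.84 CPM in *Gpr174-/Y* muscle. Both of its groups were tight, and it fell with a log2 fold change of -0.96 (adjusted p = 0.00087). *Dusp1*, a MAP kinase phosphatase, fell with a log2 fold change of -0.82 (adjusted p = 0.000871). Under total-count scaling *Sigirr* and *Dusp1* remained called lower.

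Of 18 genes listed as induced by TLR signalling 14 were tested, 4 rose, 2 fell and 8 did not pass. Under total-count scaling 6 rose and 1 fell. *Il1a*, named after its values were seen, was called lower with TMM (log2 fold change -0.80) but not with total counts (-0.53, adjusted p = 0.135 by edgeR). *Il6* had 0, 2 and 5 counts in WT and 15, 13 and 16 counts in *Gpr174-/Y* muscle (adjusted p = 0.0141). *Il6* passed the filter on low counts only through the *Gpr174-/Y* libraries, where it was high, so its call leans on that filter. *Il1b* had 12, 12 and 19 counts in WT and 58, 39 and 40 counts in *Gpr174-/Y* muscle (log2 fold change 1.34, adjusted p = 0.0056), and *Tnf* had 13, 9 and 22 and 38, 37 and 35 counts (0.99, adjusted p = 0.0189). These cytokine counts were separated between the groups but small. *Nos2*, the inducible nitric oxide synthase, went the other way, from 22.5, 19.8 and 13.4 CPM in WT to 8.98, 9.18 and 9.54 CPM in *Gpr174-/Y* muscle (log2 fold change -1.01, adjusted p = 0.00436).

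Proteins described as endogenous TLR ligands were mostly matrix components here. Of 10 listed, 7 were tested, 5 rose and 1 fell, with a median of 0.96, while *S100a8*, *S100a9* and *Saa3* were too low to test. *Tnc*, tenascin C, which is described as a TLR4 ligand, was at 160.3, 344 and 593 CPM in WT and 1563, 1548 and 1525 CPM in *Gpr174-/Y* muscle. The *Tnc* WT libraries were spread widely, while the *Gpr174-/Y* libraries were level, and the log2 fold change was 2.08 (adjusted p = 0.00656). *Bgn*, the proteoglycan biglycan, rose with 1.04 (adjusted p = 0.00914), *Fn1*, fibronectin, with 0.96 (adjusted p = 0.0094) and *Vcan*, versican, with 0.96 (adjusted p = 0.00279). *Dcn*, decorin, fell from 772 to 863 CPM in WT to 545 to 562 CPM in *Gpr174-/Y* muscle (chosen after its values were seen, as the 1 gene of the list that fell).

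**Figure D4:**
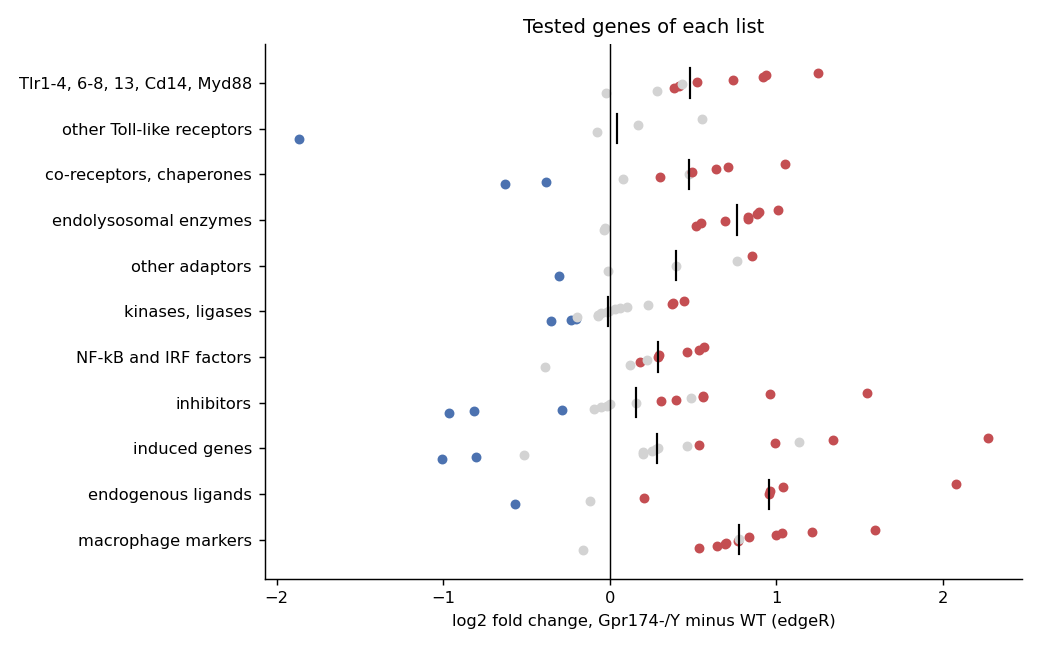
Each point is 1 tested gene of a list, with the log2 fold change, *Gpr174-/Y* minus WT, on the horizontal axis, the black bar at the list's median, and red, blue and grey for genes called higher, lower or not called by edgeR. The kinases and ligases lie around 0 with a median of -0.01, the endolysosomal enzymes and endogenous ligands lie to the right with medians of 0.76 and 0.96, and the 10 receptor, co-receptor and adaptor genes lie between them with 0.48.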

How the data were processed

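The authors deposited, for each of the 6 libraries, expected counts (estimated reads per RefSeq transcript, not normalized), FPKM and TPM for 58843 transcripts, and the group means in the table were left aside. The submitters' processing notes name HISAT2 2.0.4, Bowtie2 2.2.5, RSEM 1.2.12 and GRCm39, and the use of strand is not given in the sources used here. The labels name an Illumina TruSeq kit and the methods a BGISEQ sequencer. Every column of per-sample values was mapped to a mouse by its label.

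Expected counts were summed per Entrez gene and rounded, giving 18089 genes (99.7% with a symbol). Summing matters here because the 10 genes had 34 transcripts, and estimated counts moved between transcripts of *Tlr1*, *Tlr3* and *Tlr7* from library to library. The leading transcript also changed between libraries for *Tlr6* and for *Tlr8*, which had 4 different ones. Levels in TPM depend on this split. Genes were compared with edgeR 4.0.16 in R 4.3.3 (TMM, filterByExpr, robust quasi-likelihood F-test, no covariates), with Benjamini-Hochberg adjustment over 14395 genes, 95% intervals, an adjusted p threshold of 0.05 and the study's log2 fold change threshold of 1. edgeR estimated a common dispersion of 0.00967 (biological coefficient of variation 0.0983). The study's DEGseq was replaced because replicates were available. TPM was summed over a gene's transcripts. Single genes were also compared by a 2-sided exact permutation test. A gene's levels were divided by the summed counts of 12 macrophage markers as a description. Each muscle was taken as a separate mouse, as the labels number them.

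Alternatives were DESeq2 1.42.0 size factors and Wald test, total counts, limma 3.58.1 voom, a filter of at least 10 counts in each library or none, limma on log2(FPKM + 1) with and without a minimum FPKM of 1 in 3 libraries and on log2(FPKM + 0.1), a replicate block, each library left out, replicates 1 and 3 alone, and a test against a 1.2-fold change. FPKM, as deposited by the authors, is scaled to total counts and so shares that scaling. The tests were checked on simulated data. All 10 genes are named, as are the other Toll-like receptors and TIR adaptors, and from each other list up to 4 genes with the largest absolute log2 fold change among those called. Marker genes of cell types named as examples were chosen after their values were seen. The genes and lists were chosen with earlier results of these data known. Promoters came from RefSeq on GRCm38.p6, and shared windows from GENCODE M21 transcripts. Coordinates on the build of the files were not used here.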

Additional observations from a re-analysis of the deposited data

How the results depend on the processing

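The 10 genes gave 180 comparisons over 18 alternatives, of which 136 gave the same direction and call, 27 lost the call, 11 gained it and 6 reversed. *Tlr13* and *Tlr8* were called in 17 of 18. All reversals were of *Tlr3*, which had a log2 fold change of 0.24 with total counts, 0.19 with log2(FPKM + 1) with or without the filter, 0.25 with log2(FPKM + 0.1), 0.15 without WT replicate 3 and 0.08 without *Gpr174-/Y* replicate 1 (-0.13 to 0.15 with any library left out), and was never called. Of the 10 genes 7 were called by edgeR, 4 when tested against a 1.2-fold change, 0 with replicates 1 and 3 of each group alone (edgeR, the 1 tool run on them, with 3 at an unadjusted p under 0.05), and 2 to 9 with a library left out. Total counts and each fit on FPKM called 9 of the 10 genes. The count with a log2 fold change above 1 as well was 1, and 4 with total counts, 3 with log2(FPKM + 1) with or without the filter, 4 with log2(FPKM + 0.1), 0 with replicates 1 and 3 alone, and 1 to 3 with a library left out. Of the pathway genes 51 were called, 28 against a 1.2-fold change, 0 with replicates 1 and 3 alone (29 at an unadjusted p under 0.05) and 34 to 61 with a library left out. When at least 10 counts were required in every library, 46 pathway genes were called. That filter left out *Il6*, *Tnf*, *Il1a*, *Tnip3* and *Tlr11*, which had fewer counts than this in some libraries. The smallest adjusted p of any gene with replicates 1 and 3 alone was 0.0542. Total counts called 7303 genes higher and 2010 lower over the whole table, and log2(FPKM + 1) called 6817 and 1823, against 3891 and 3972 with TMM. How many of all genes also passed a log2 fold change of 1 was not counted with total counts or FPKM.

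Same-numbered mice of the 2 groups are different animals and over the 3859 abundant genes did not deviate together (correlations of -0.027, -0.011 and -0.037), although replicate 3 was highest for 10 of the 10 genes in WT and for 8 in *Gpr174-/Y* muscle. With the replicate block 7 of the 10 genes were called, with *Tlr7* (adjusted p = 0.0125) in place of *Myd88* (adjusted p = 0.0525), 1 gene passed both thresholds and 49 pathway genes were called.

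Each of the 10 genes had at least 85 counts in every library. With 3 mice a group no exact test of a single gene can pass 0.05, and the intervals of *Tlr3* and *Tlr7* include 0.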

Other observations

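*Tlr13* and *Gpr174* both lie on chromosome X, and the values of the genes between them were looked at after the results were known. RefSeq lists 23 genes in that stretch, 10 of them protein coding, and 8 were tested. *Fndc3c1* (log2 fold change 0.42, adjusted p = 0.0326), *Cysltr1* (0.59, adjusted p = 0.037) and *P2ry10b* (0.47, adjusted p = 0.0201) rose in *Gpr174-/Y* muscle, *Pgk1* (-0.99, adjusted p = 0.00307) and *Lpar4* (-0.59, adjusted p = 0.00863) fell, and *Taf9b* (-0.09, adjusted p = 0.566), *Rtl3* (-0.08, adjusted p = 0.481) and *P2ry10* (-0.54, adjusted p = 0.0521) did not pass edgeR's test. Over all of chromosome X, 168 of 486 genes tested rose (34.6%) and 102 fell. Whether the position of *Tlr13* bears on its difference was not tested.

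*Irf7*, the factor through which endosomal receptors induce type I interferon, spread most among the NF-kB and IRF factors, with 47.2, 124.5 and 234 CPM in the WT replicates and 83.0, 97.6 and 129.6 CPM in the *Gpr174-/Y* replicates, and is named after its values were seen. The *Gpr174-/Y* libraries lay inside the WT range, with a log2 fold change of -0.39 (SE 0.51, adjusted p = 0.542). *Cxcl10*, a chemokine induced by interferon and also chosen after its values were seen, was at 6.22, 13.2 and 26.1 CPM in WT and 29.6, 33.0 and 38.3 CPM in *Gpr174-/Y* muscle (log2 fold change 1.14, adjusted p = 0.0567).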
